A study of Saccharomyces cerevisiae with 16 samples.

Results

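The genes described here are the 6 through which Saccharomyces cerevisiae takes up, makes and attaches biotin: VHT1, BIO5, BIO3, BIO4, BIO2 and BPL1. They were taken by systematic name (YGR065C, YNR056C, YNR058W, YNR057C, YGR286C and YDL141W) from the 6174 genes of the series, and all 6 had a value on at least 1 array. The set was selected on the 10 min ratios of VHT1, which were higher in the mutant than in wild type, so these values are given as a description, with no test.

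The study asks what protein kinase A signalling contributes when yeast meets alkaline pH, and its 16 two-colour arrays fall into 4 groups of 4. The mutant strain MCY5278 (msn2::kanMX4 msn4::hphMX4, in the W303-1A background) received 20 mM KOH for 30 min, and wild type W303-1A received 20 mM KOH for 30 min. The other two groups are MCY5278 and W303-1A after 10 min of 20 mM KOH. On every array the RNA of KOH cells competed with RNA of that strain after an equal time in 20 mM KCl, and all cultures grew exponentially in rich YPD medium. Msn2 and Msn4, absent from the mutant by its genotype, are related transcription factors of the general stress response that protein kinase A restrains.

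The deposited value is 1 log ratio per gene and array, read here as log2 of KOH over KCl. Both the base and the direction are likely rather than stated, and the values do not tell base 2 from the natural logarithm. Each array was centred on its median, which lay between -0.285 and 0.2615 as deposited. The arrays held values for 2073 to 5443 genes (33.6% to 88.2% of all), with 2073 to 5038 on the 10 min arrays and 3965 to 5443 on the 30 min arrays. The design names 2 biological replicates per condition with dye swaps, and the labels do not say which of the 4 arrays share an extract. Arrays were therefore the units, and every p-value is too small where arrays share an extract. The number of arrays limits the precision. Ratios within a strain carry no level, so the mating type and the deletions could not be checked from them: the mutant arrays held 8 values of MSN2 and 5 of MSN4, and neither ratio passed in any group where it was tested (adjusted p between 0.119 and 0.775). Each value stands for the RNA of a whole culture, in which fewer responding cells and less RNA per cell cannot be told apart.

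Biotin is the cofactor of carboxylases, which carry it bound to a lysine. Vht1 imports it through the plasma membrane together with protons. Bio5 imports the precursor 7-keto-8-aminopelargonic acid, which Bio3 (an aminotransferase), Bio4 (dethiobiotin synthetase) and Bio2 (the iron-sulphur enzyme biotin synthase of mitochondria) turn into biotin, and Bpl1 ligates biotin to its target proteins. BIO5, BIO4 and BIO3 lie next to each other on chromosome XIV, and BIO3 is transcribed away from BIO4. BIO2 and VHT1 lie on chromosome VII and BPL1 on chromosome IV. VHT1 and BIO5 are known to be raised by the transcription factor Vhr1, of which Vhr2 is a paralogue, in biotin shortage, and in iron-poor medium VHT1 is known to be raised while genes of biotin synthesis are lowered.

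After 30 min of alkali the uptake gene VHT1 rose and the biotin synthase gene BIO2 fell in both strains. BIO5 and BIO3 did not pass in the mutant and rose in wild type, but the difference between the strains passed for neither. Of the 5 biotin genes that had enough values at 30 min, 1 rose and 1 fell in the mutant, where 22% of the 4234 genes tested rose and 19.1% fell (41.1% in all). In wild type 3 rose and 1 fell, where 19.2% of the 4288 genes tested rose and 18.8% fell (38% in all). Testing a gene took at least 3 measured arrays per group, with both dye orientations among them, and a gene passed at a Benjamini-Hochberg adjusted p below 0.05 in limma over all genes tested. BIO4 did not reach that minimum at either time, and BIO3 and BIO5 did not reach it at 10 min.

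**Figure D1:**
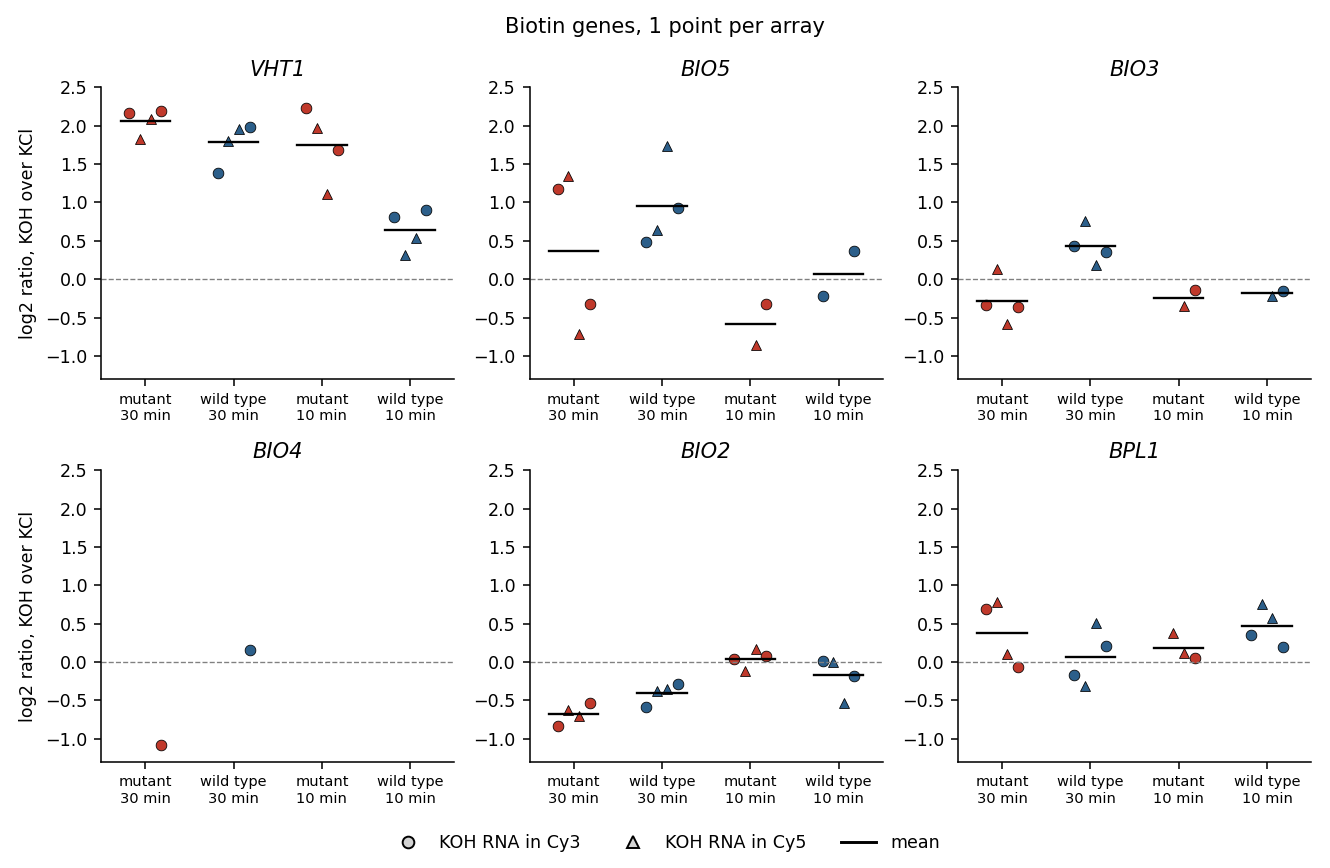
Log2 ratios of KOH over KCl (y axis, centred on each array's median) of the 6 genes on each array, by strain and time (x axis). Circles are arrays with the KOH RNA in Cy3, triangles arrays with it in Cy5, red is the mutant and blue wild type, and the line is the mean. VHT1 averaged 2.07 (mutant) and 1.78 (wild type) at 30 min, and 1.74 (mutant) and 0.64 (wild type) at 10 min, while BIO4 has 2 points in all.

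VHT1 had values on all 16 arrays. At 30 min its log2 ratios were 2.17, 1.83, 2.09 and 2.19 on the mutant arrays. On the wild type arrays at 30 min they were 1.39, 1.80, 1.96 and 1.99. Thus all 8 ratios were far above 0, and those of the strains overlapped. VHT1 rose by 2.07 ± 0.155 (SE of the model, n = 4, 4.19-fold, adjusted p = 2.12e-08) in the mutant at 30 min and by 1.78 ± 0.155 (n = 4, 3.44-fold, adjusted p = 1.55e-07) in wild type. The difference of the strains at 30 min, mutant minus wild type, was 0.28 ± 0.218 with a 95% interval from -0.18 to 0.74, and it did not pass (adjusted p = 0.502).

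At 10 min the VHT1 ratios were 2.23, 1.96, 1.10 and 1.68 in the mutant, with a mean of 1.74 ± 0.483 (SD, n = 4). The wild type ratios at 10 min were 0.81, 0.32, 0.54 and 0.90, with a mean of 0.64 ± 0.265 (SD, n = 4). Every mutant array lay above every wild type array, and this is the pattern for which the genes were chosen. The mean difference was 1.10 on the log2 scale or 2.15-fold. Of the 2361 genes with enough values in both strains at 10 min, 0.0847% were called higher in the mutant, and nothing is read from this share for VHT1, since its difference was what selected the genes. The same 8 values are described here by dye and by slide series, which adds no evidence for the difference. With the KOH RNA in Cy3 the means were 1.95 in the mutant and 0.86 in wild type, and with it in Cy5 they were 1.53 in the mutant and 0.43 in wild type.

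Array titles fall into number series, read here as slide series: a larger one of 12 arrays and a smaller one of 4, with each group represented in both. All 4 arrays of the smaller series carried the KOH RNA in Cy3, so series and dye are partly confounded. On the 1 array per group of the smaller series, VHT1 stood at 1.68 in the mutant and 0.90 in wild type at 10 min. Over the 3 arrays per group of the larger series it averaged 1.77 in the mutant and 0.56 in wild type at 10 min.

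From highest to lowest, the VHT1 means were those of the mutant at 30 min (2.07), wild type at 30 min (1.78), the mutant at 10 min (1.74) and wild type at 10 min (0.64). The arrays of the first 3 groups overlapped, and wild type at 30 min and the mutant at 10 min differed by less than the spread between arrays. Wild type at 10 min lay apart, with its highest array, 0.90, below the lowest of the other 12, 1.10. The later time exceeded the earlier one by 0.32 in the mutant and by 1.14 in wild type, both given without a test because they contain the 10 min arrays.

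**Figure D2:**
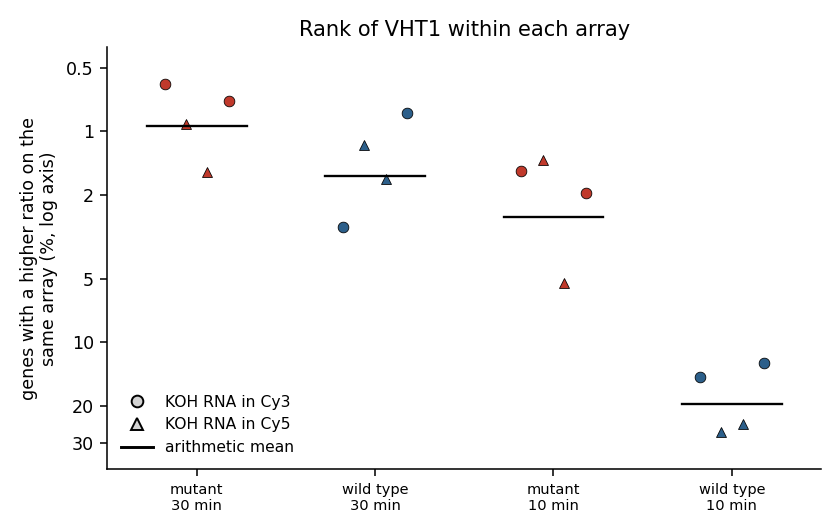
Share of the genes measured on an array that had a higher KOH over KCl ratio than VHT1 (y axis, percent, logarithmic and inverted so that the top is the strongest response), by strain and time (x axis). Each point is 1 array and the line is the arithmetic mean. Wild type at 10 min, with 12.6% to 26.7% of genes above VHT1, lies below the other 3 groups, where the share was at most 5.26%.

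Ranks within an array do not depend on the centring or on the log base. At 30 min between 0.598% and 1.56% of the genes on a mutant array stood above VHT1, and between 0.818% and 2.85% on a wild type array. At 10 min the share was 1.37% to 5.26% on the mutant arrays and 12.6% to 26.7% on the wild type arrays. The arrays differ in how many genes they measured, so the shares refer to unequal sets of genes. By the fitted ratios at 30 min, VHT1 ranked 25 of 4234 genes in the mutant and 47 of 4288 in wild type.

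BIO5, the precursor transporter of the same cluster as BIO3 and BIO4, had values on 12 arrays. Its ratios at 30 min were 1.17, 1.34, -0.71 and -0.32 in the mutant. Wild type arrays gave 0.49, 0.64, 1.73 and 0.925. The mutant arrays split into 2 high and 2 low ones, with 1 array of each dye orientation on each side, while all 4 wild type arrays were above 0. BIO5 stood at 0.37 ± 0.321 (n = 4, adjusted p = 0.371) in the mutant and rose by 0.95 ± 0.314 (n = 4, 1.93-fold, adjusted p = 0.0303) in wild type. The mutant log2 ratio ran from 0.0047 without array 2 to 0.795 without array 3. It passed in none of 30 alternatives (adjusted p from 0.0605 to 0.992). The rise in wild type rests on single arrays: without array 3 it was 0.65 (adjusted p = 0.171), and without array 4 it was 0.95 (adjusted p = 0.0712). With the slide series as a block it was 0.96 and did not pass either (adjusted p = 0.0513). The difference, mutant minus wild type, was -0.58 ± 0.441 with a 95% interval from -1.53 to 0.38 (adjusted p = 0.505), and it ran from -0.94 without array 2 of the mutant to -0.15 without array 3 of the mutant.

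At 10 min BIO5 had 2 values in each strain, -0.85 and -0.32 in the mutant and -0.22 and 0.36 in wild type. Both wild type values had the KOH RNA in Cy3, so no dye effect could be balanced and no test was made.

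BIO3, the aminotransferase gene, had ratios of -0.335, 0.13, -0.58 and -0.37 in the mutant at 30 min. The wild type ratios at 30 min were 0.44, 0.76, 0.19 and 0.36. The groups did not overlap, since the highest mutant array stood at 0.13 and the lowest wild type array at 0.19. BIO3 stood at -0.29 ± 0.142 (n = 4, adjusted p = 0.12) in the mutant and rose by 0.44 ± 0.143 (n = 4, 1.35-fold, adjusted p = 0.0286) in wild type.

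The BIO3 difference at 30 min, mutant minus wild type, was -0.72 ± 0.20 with a 95% interval from -1.16 to -0.29. It did not pass after adjustment over 3978 genes (adjusted p = 0.074), of which 1.01% did, and its unadjusted p was 0.00315. Without array 3 of wild type it was -0.82 and passed (adjusted p = 0.0405). Without array 2 of the mutant, the mutant ratio of -0.44 passed as a fall (adjusted p = 0.0334). The rise in wild type was lost without its array 1 (0.43, adjusted p = 0.0727), array 2 (0.32, adjusted p = 0.144) or array 4 (0.46, adjusted p = 0.0573), and with the slide series as a block (0.43, adjusted p = 0.0593). At 10 min BIO3 had values on arrays 3 and 4 only, -0.35 and -0.14 in the mutant and -0.22 and -0.15 in wild type, too few for a test.

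BIO4, the dethiobiotin synthetase gene, had a value on 2 of the 16 arrays, both at 30 min and both in the smaller slide series. The mutant value was -1.075 and the wild type value 0.15. A single array per strain allows no test and no error.

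BIO2, the gene for the last enzyme of the pathway, had values on all 16 arrays. At 30 min the ratios were -0.83, -0.62, -0.71 and -0.53 in the mutant. Those of wild type were -0.59, -0.375, -0.35 and -0.28. All 8 were below 0, and the groups overlapped on 1 wild type array. BIO2 fell by 0.67 ± 0.115 on the log2 scale (n = 4, 1.59-fold lower, adjusted p = 0.000254) in the mutant and by 0.40 ± 0.117 (n = 4, 1.32-fold lower, adjusted p = 0.0127) in wild type. The wild type fall was lost in 3 of 30 alternatives. Without array 1, the wild type ratio was -0.32 and no longer passed (adjusted p = 0.0774). Nor did it pass with the compared group alone in the fit (adjusted p = 0.0738). With arrays of opposite dye averaged, it did not pass under the pairing with the largest p (adjusted p = 0.217). The difference between the strains, -0.27 ± 0.164, had a 95% interval from -0.62 to 0.07 and did not pass (adjusted p = 0.36).

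At 10 min the BIO2 ratios lay close to 0. They were 0.04, -0.12, 0.17 and 0.08 in the mutant, and 0.01, 0.005, -0.53 and -0.18 in wild type. Neither group passed, with 0.04 ± 0.113 (n = 4, adjusted p = 0.787) in the mutant and -0.17 ± 0.114 (n = 4, adjusted p = 0.237) in wild type. Set against 10 min, the ratio at 30 min was lower by a log2 difference of -0.72 ± 0.164 in the mutant (95% interval -1.06 to -0.37, adjusted p = 0.00479), and no mutant array at 30 min overlapped one at 10 min. With arrays of opposite dye averaged, the call was lost under the pairing with the largest p (adjusted p = 0.201). In wild type the same difference was -0.22 ± 0.162 and did not pass (adjusted p = 0.348). BIO2 was 1 of 2 biotin genes tested for this difference in the mutant and the one that passed, where 16.1% of 2934 genes did and 10.1% were lower. For wild type limma called 0 of 2, also 0 at an unadjusted p below 0.05, where 19.9% of 2607 genes passed.

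BPL1, the ligase gene, had values on 15 arrays. Its ratios at 30 min were 0.70, 0.78, 0.11 and -0.06 in the mutant. The wild type ratios at 30 min were -0.165, -0.31, 0.51 and 0.21. In the mutant the 2 high arrays, 1 and 2, were the same as for BIO5, and the wild type arrays lay on both sides of 0. BPL1 stood at 0.38 ± 0.16 (n = 4, adjusted p = 0.0692) in the mutant and 0.06 ± 0.16 (n = 4, adjusted p = 0.791) in wild type. Without array 3 or array 4 of the mutant the mutant ratio passed, at 0.52 (adjusted p = 0.0371) and 0.50 (adjusted p = 0.0387). The difference, mutant minus wild type, was 0.32 ± 0.225 with a 95% interval from -0.16 to 0.80 (adjusted p = 0.457).

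At 10 min BPL1 had ratios of 0.37, 0.115 and 0.05 on 3 mutant arrays. On the 4 wild type arrays they were 0.35, 0.76, 0.58 and 0.19. BPL1 stood at 0.15 ± 0.184 (n = 3, adjusted p = 0.557) in the mutant and rose by 0.47 ± 0.157 (n = 4, 1.39-fold, adjusted p = 0.0236) in wild type. The call was lost without array 2 (0.40, adjusted p = 0.0926) or array 3 (0.47, adjusted p = 0.0687) of wild type. Set against 10 min, the ratio at 30 min differed by 0.23 ± 0.242 (adjusted p = 0.598) in the mutant and by -0.41 ± 0.222 (adjusted p = 0.206) in wild type.

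The 10 min counts leave out VHT1. In the mutant limma called 0 of the 2 biotin genes tested at 10 min, also 0 at an unadjusted p below 0.05, where 36.5% of 3042 genes passed. In wild type BPL1 was the 1 of 2 that passed, as a rise, where 42.7% of 2670 genes passed and 21.8% rose. For the strain difference at 30 min limma called 0 of 5 biotin genes, where 1.01% of 3978 genes passed. BIO3 was the 1 at an unadjusted p below 0.05. The fitted ratios of the 5 genes ran both ways at 30 min, so their median, 0.37 in the mutant and 0.44 in wild type (0.02 in both for all genes tested), is the value of 1 gene, BIO5 in the mutant and BIO3 in wild type.

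**Figure D3:**
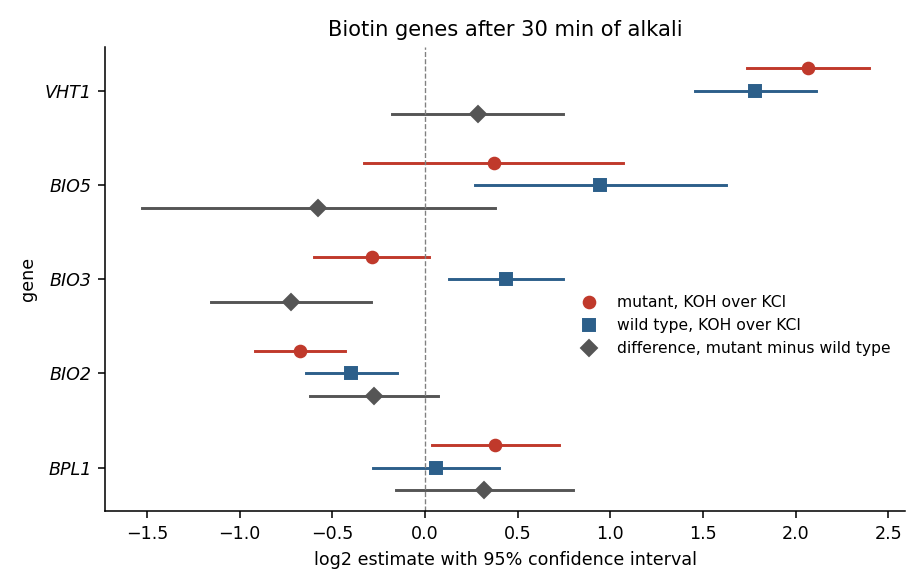
Fitted log2 ratios at 30 min (x axis) of the 5 biotin genes with enough values (y axis), with 95% confidence intervals as bars. Red circles are the mutant and blue squares wild type, KOH over KCl, and grey diamonds are the difference, mutant minus wild type. The differences run from -0.72 for BIO3 to 0.32 for BPL1, and the BIO3 interval, -1.16 to -0.29, is the 1 that leaves out 0, although its adjusted p of 0.074 did not pass.

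The proteins that carry biotin made up a list of 6 genes: the pyruvate carboxylases PYC1 and PYC2, the cytosolic and mitochondrial acetyl-CoA carboxylases ACC1 and HFA1, the urea amidolyase DUR12 (also written DUR1,2) and ARC1, a cofactor of tRNA charging. In the mutant at 30 min 4 of the 6 rose and none fell, where 22% of all genes tested rose, with a median ratio of 0.68 against 0.02 for all genes tested. Wild type at 30 min had 1 riser among the 6 and no faller, where 19.2% of all genes rose, with a median of -0.23 against 0.02 for all genes tested. At 10 min 1 of the 4 tested rose in either strain, where 18.6% of all genes rose in the mutant and 21.8% in wild type, and in both it was PYC1.

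PYC1 stood at 2.12, 2.495, 2.70 and 2.24 in the mutant at 30 min. Its wild type ratios were 1.58, 2.13, 2.81 and 2.28. It rose 5.24-fold (2.39 ± 0.16, n = 4, adjusted p = 6.25e-09) in the mutant and 4.60-fold (2.20 ± 0.16, n = 4, adjusted p = 2.99e-08) in wild type, and the difference of 0.19 had a 95% interval from -0.29 to 0.66 (adjusted p = 0.68). At 10 min PYC1 rose by 2.47 ± 0.157 (n = 4, adjusted p = 2.51e-09) in the mutant and by 1.99 ± 0.158 (n = 4, adjusted p = 2.91e-08) in wild type.

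ACC1, which makes malonyl-CoA for fatty acid synthesis, had ratios of 0.61, 0.74, 0.77 and 0.67 in the mutant at 30 min. Wild type gave -0.63, -0.97, 0.15 and -0.01. The groups did not overlap. ACC1 rose by 0.70 ± 0.172 (n = 4, adjusted p = 0.00458) in the mutant and stood at -0.36 ± 0.171 (n = 4, adjusted p = 0.106) in wild type. The difference of 1.06 ± 0.241 passed (adjusted p = 0.0466), but in 18 of 30 alternatives it did not. Among these were 12 of the 16 fits that leave out 1 array, of whichever group, with values between 0.83 and 1.08 and adjusted p up to 0.166. The call held without array 1 or 4 of wild type at 10 min and without array 3 or 4 of wild type at 30 min.

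PYC2 rose by 0.59 ± 0.167 (n = 3, adjusted p = 0.0143) and DUR12 by 0.66 ± 0.193 (n = 3, adjusted p = 0.0203) in the mutant at 30 min. Both calls were lost with the compared group alone in the fit (adjusted p = 0.124 for PYC2 and 0.112 for DUR12), and with arrays of opposite dye averaged under the pairing with the largest p (0.0741 for PYC2, 0.0814 for DUR12, and 0.0808 for ACC1). HFA1, at 0.81 ± 0.316 (n = 3, adjusted p = 0.0649), did not pass there. Among the wild type ratios, PYC2 stood at -0.10 ± 0.168 (n = 3, adjusted p = 0.683), DUR12 at -0.22 ± 0.164 (n = 4, adjusted p = 0.319) and HFA1 at -0.46 ± 0.263 (n = 4, adjusted p = 0.201). None of these 3 passed for the difference of the strains, which was 0.69 for PYC2 (adjusted p = 0.121), 0.88 for DUR12 (adjusted p = 0.085) and 1.26 for HFA1 (adjusted p = 0.112). ARC1 stood at -0.28 (adjusted p = 0.124) in the mutant and -0.24 (adjusted p = 0.209) in wild type.

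**Figure D4:**
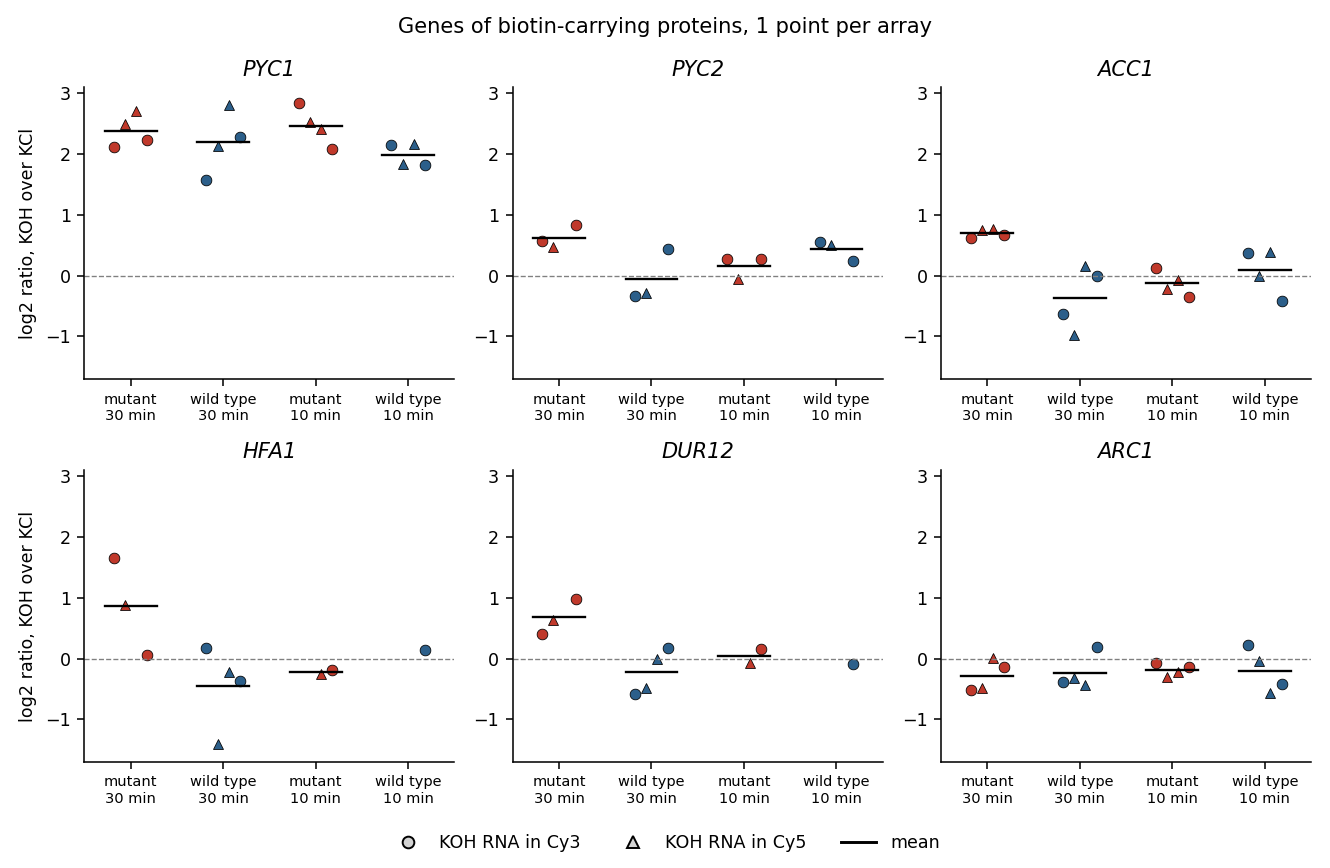
Log2 ratios of KOH over KCl (y axis) of the 6 genes for biotin-carrying proteins on each array, by strain and time (x axis), with symbols and lines as in the plot of the biotin genes. PYC1 lies between 1.58 and 2.85 on all 16 arrays, while the ACC1 points of the mutant at 30 min, 0.61 to 0.77, lie above those of wild type at 30 min, -0.97 to 0.15.

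VHR1, the regulator of VHT1 and BIO5, had ratios of 1.32, 0.70, 0.50 and 0.39 in the mutant at 30 min. At 10 min it stood at 1.98, 1.83 and 2.11 on 3 mutant arrays. It rose at both times, by 0.73 ± 0.163 at 30 min (n = 4, adjusted p = 0.00705) and by 2.01 ± 0.187 at 10 min (n = 3, 4.03-fold, adjusted p = 1.94e-05), and the later ratio was lower by a log2 difference of -1.285 ± 0.245 (adjusted p = 0.00401). The rise at 30 min did not pass with the compared group alone in the fit (adjusted p = 0.0556). Under the opposite-dye pairing with the largest p, neither this rise (adjusted p = 0.068) nor the time difference (adjusted p = 0.0603) passed. In wild type VHR1 had 1 value at each time, 1.87 at 30 min and 2.35 at 10 min, so the strains could not be compared. VHR2 fell by 0.82 ± 0.241 on the log2 scale in wild type at 30 min (adjusted p = 0.0345) over 3 arrays that stood at -0.91, -1.22 and 0.07. The fall did not pass without the dye term (-0.69, adjusted p = 0.0674), and the other groups had 1 value each.

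Among 9 genes for vitamin transporters and related symporters of the plasma membrane, 4 could be tested at 30 min. In the mutant 1 of the 4 rose, the pyridoxine transporter TPN1, by 0.61 ± 0.152 (n = 4, adjusted p = 0.00607), where 22% of all genes tested rose. The TPN1 call was lost with the compared group alone in the fit (adjusted p = 0.0673) and under the opposite-dye pairing with the largest p (adjusted p = 0.145). In wild type at 30 min limma called 0 of 4, with 1 at an unadjusted p below 0.05, where 38% of all genes tested passed. At 10 min limma called 0 of 2 in the mutant, also 0 unadjusted, where 36.5% of all genes passed. The nicotinic acid permease TNA1 was the 1 gene tested at that time in wild type, where 21.8% of all genes rose. It rose by 1.04 ± 0.19 (n = 4, adjusted p = 0.000283).

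Iron genes were listed because Bio2 is an iron-sulphur enzyme. Of 21 genes of the Aft1 iron regulon, 9 of 16 tested rose and none fell in the mutant at 30 min (median 0.74), and 7 of 15 rose and none fell in wild type (median 0.34). Over all genes tested at 30 min, 22% rose in the mutant and 19.2% in wild type, with a median of 0.02 in both. At 10 min 2 of 11 rose and 1 fell in the mutant, where 18.6% of all genes rose and 17.9% fell. In wild type at 10 min 3 of 9 rose and 1 fell, where 21.8% of all genes rose and 20.9% fell. HMX1, a haem oxygenase, rose by 2.10 ± 0.154 (adjusted p = 3.45e-07) in the mutant and by 2.30 ± 0.154 (adjusted p = 1.4e-07) in wild type at 30 min. ISU1, a scaffold for iron-sulphur assembly, rose by 2.03 ± 0.21 (adjusted p = 1.18e-06) in the mutant and by 1.76 ± 0.208 (adjusted p = 4.23e-06) in wild type at 30 min. It had already risen at 10 min, by 2.03 ± 0.206 (adjusted p = 9.98e-07) in the mutant and by 1.40 ± 0.206 (adjusted p = 3.24e-05) in wild type. FRE1, a ferric reductase of the cell surface, rose by 1.47 ± 0.151 (adjusted p = 1e-06) in the mutant at 30 min and fell by 0.93 ± 0.148 on the log2 scale there at 10 min (adjusted p = 0.000105). In wild type FRE1 rose by 0.43 ± 0.151 at 30 min (adjusted p = 0.0329) and fell by 0.47 ± 0.148 on the log2 scale at 10 min (adjusted p = 0.016). The wild type rise was lost in 7 of 30 alternatives, among them those without its array 1 (0.38, adjusted p = 0.114), array 2 (0.46, adjusted p = 0.0546) or array 3 (0.38, adjusted p = 0.113). The wild type fall was lost in 4 of 30, among them those without its array 1 (-0.37, adjusted p = 0.0869) or array 2 (-0.33, adjusted p = 0.114). Whether iron bears on the biotin genes was not tested.

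The nearest patterns to that of VHT1 were sought by Pearson correlation over the arrays where both genes had values, among 3210 genes with at least 12 such arrays. The 5 highest were MOB2 (0.862, 12 arrays), ALK1 (0.861, 13 arrays), SER2 (0.857, 16 arrays), SKI6 (0.854, 15 arrays) and TOS6 (0.836, 15 arrays). The arrays share strains, times and probably extracts, so these are descriptions, and Spearman correlation picked 0 of these 5. All correlations and ranks here include the 10 min values of VHT1 that selected the genes, so they add no evidence for its pattern. SER2, which acts in serine synthesis, had group means of 0.05 in the mutant and 0.10 in wild type at 30 min. At 10 min its means were -0.09 in the mutant and -0.92 in wild type. It had the same low group as VHT1 but little or no positive response. SKI6 was alike at 10 min, with 0.01 in the mutant and -0.60 in wild type. MOB2, ALK1 and TOS6 were low at 10 min in both strains. They stood at -0.50, -0.58 and -0.49 in the mutant and at -0.78, -0.83 and -0.84 in wild type. The other biotin genes that could be ranked were not among the nearest: BIO5 had a correlation of 0.334 with VHT1 (12 arrays, rank 799), BIO3 0.0484 (12 arrays, rank 1475), BPL1 -0.248 (15 arrays, rank 2240) and BIO2 -0.363 (16 arrays, rank 2505). BIO4, with values on 2 arrays, was not ranked. BIO3 and BIO5 had 2 arrays per strain at 10 min and 4 at 30 min. Their correlations therefore cover the 10 min groups less well than that of BIO2.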

How the data were processed

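The values deposited by the authors are log ratios, read as log2, which no source used here states. Of 64028 values, 44 lie beyond what a 16-bit scanner can give in base 10, against 1 (16.268) in base 2 or the natural logarithm, and between these 2 bases the choice rests on custom. How the authors scanned, background-corrected, normalized and filtered is not given in the sources used here. Per the labels' protocols, cDNA was primed with oligo(dT) and dyes were coupled after labelling. The KOH RNA carried Cy3 on 2 and Cy5 on 2 arrays of each group. Each array was centred on its median, and limma 3.58.1 (R 4.3.3) took all 16 arrays together, with 4 group coefficients and 1 dye term per gene. Tests were two-sided, with Benjamini-Hochberg adjustment over all genes tested and a threshold of 0.05. The fit was tested on simulated data. Errors after ± are model standard errors unless marked SD. Gene names came from the R64 reference table (5675 of 6174 matched), which also gave the gene order.

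The members and lists were chosen with earlier results of these data known. Named were all members, every gene of a list of 6 or fewer, at most 3 genes of a longer list per comparison (the largest among those that passed with 1 sign on all arrays), and the 5 genes most like VHT1; some that this rule takes are left out. Markers of mating type were also counted. Of 5 MATa markers 1 of 3 tested rose in the mutant at 30 min (BAR1), where 22% of all genes tested rose. In wild type at 30 min 1 of 3 fell (STE6), where 18.8% of all genes fell. At 10 min limma called 0 of 1 in either strain, 0 unadjusted, where 36.5% of all genes passed in the mutant and 42.7% in wild type. Of 3 MATalpha markers, MF(ALPHA)2 alone could be tested, and it passed in no group (0 unadjusted). All genes passed at 41.1% in the mutant and 38% in wild type at 30 min, and at 42.7% in wild type at 10 min. Alternatives changed the model, scaling, filter and arrays, and averaged arrays of opposite dye under each of 16 pairings. No coordinates or sequences are printed.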

Additional observations from a re-analysis of the deposited data

Results flagged for a closer look

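For these genes the effect of KOH differed between strains or between times in a test of the difference itself. BIO2 stood lower at 30 min than at 10 min in the mutant by a log2 difference of -0.72 (adjusted p = 0.00479), with 0 overlap of the arrays. ACC1 stood higher in the mutant than in wild type at 30 min by 1.06 (adjusted p = 0.0466), a call that 18 of 30 alternatives did not keep. It also stood higher at 30 min than at 10 min in the mutant by 0.83 (adjusted p = 0.0224, lost without mutant 10 min array 2 at 0.79, adjusted p = 0.0513, or array 4 at 0.75, adjusted p = 0.059). FRE1 stood higher in the mutant than in wild type at 30 min by 1.04 (adjusted p = 0.035), a call that 12 of 30 alternatives did not keep, and higher at 30 min than at 10 min by 2.41 in the mutant (adjusted p = 9e-07) and by 0.90 in wild type (adjusted p = 0.0057). VHR1 stood lower at 30 min than at 10 min in the mutant by a log2 difference of -1.285 (adjusted p = 0.00401). With arrays of opposite dye averaged, under the pairing with the largest p, only the FRE1 time difference in the mutant still passed. The adjusted p was then 0.201 for BIO2, 0.0603 for VHR1, and 0.131 for FRE1 over time in wild type. For ACC1 it was 0.749 between strains and 0.232 over time, and for FRE1 it was 0.749 between strains. None of the 15 groups of 4 values of the biotin genes held an array that stood far from the other 3 by Dixon's test at 0.829.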

How the results depend on the processing

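VHT1 passed at 30 min in all 30 alternatives in both strains, with a ratio of 1.89 to 2.47 in the mutant and 1.68 to 2.10 in wild type. The BIO2 fall in the mutant at 30 min also passed in all 30. The described VHT1 strain difference at 10 min ran from 0.96 to 1.30. These are refits of the values that chose the genes and add no evidence for that difference. Counts of biotin genes past the threshold moved as follows. In the mutant at 10 min the count of 0 (of 2 genes tested) became 1 of 4 under the highest of the 16 pairings of opposite dyes. BIO2 and BPL1 passed in no alternative there (lowest adjusted p 0.631 and 0.158). The call was thus BIO3 or BIO5, with 2 values each, too few for the main fit. In wild type at 30 min the count of 4 became 2 with the compared group alone in the fit, with the slide series as a block or on the larger slide series only, and 1 under the lowest pairing. It ran from 2 to 4 with single arrays left out (2 without array 1 or 4). In wild type at 10 min the count of 1 became 0 with the compared group alone and under the lowest pairing, and ran from 0 to 1 with single arrays left out. The strain difference at 30 min gained 1 call, BIO3, with array weights (adjusted p = 0.0393), and its count ran from 0 to 1 with single arrays left out. For 30 min against 10 min, the mutant count of 1 (of 2 genes tested) ran from 0 of 2 to 2 of 4 over the pairings. The wild type count of 0 (of 2 tested) reached 2 of 4. These pairings took a looser filter, which let in BIO3 and BIO5 with their 2 values per strain at 10 min. In wild type BIO2 and BPL1 passed in no alternative (lowest adjusted p 0.158 and 0.0706), so both calls were BIO3 and BIO5. The causes of the other moves were not tested.

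Small values changed sign. BIO2 in the mutant at 10 min was -0.03475 with values as deposited and -0.009477 without array 3, and ran from -0.009477 to 0.09689 with single arrays left out. BPL1 in wild type at 30 min was -0.007861 on the larger slide series, -0.05534 with array weights, -0.06837 without array 3 and -0.0309 without array 4, and ran from -0.06837 to 0.233 with single arrays left out. The VHT1 difference of 30 min against 10 min in the mutant was -0.01343 under scale normalization. Spearman correlation kept 0 of the 5 genes most like VHT1, and values as deposited kept 4.

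Counts over all genes depended more on the settings. They ran from 609 to 1583 (1109 reported) in the mutant and from 682 to 1650 (1140) in wild type at 10 min, and from 694 to 2002 (1742) in the mutant and 778 to 1859 (1630) in wild type at 30 min. The strain difference ran from 0 to 391 (40) at 30 min and 4 to 84 (23) at 10 min, and the time difference from 149 to 716 (473) in the mutant and 139 to 882 (519) in wild type. The share of calls that were higher was 8.7% for the strain difference at 10 min, against 42.9% under scale and 26.7% under quantile normalization, and 72.5% at 30 min, against 86% as deposited. For the time difference it was 37.6% in the mutant and 34.3% in wild type, against 54.2% in the mutant and 47.1% in wild type under quantile normalization. No paired analysis was possible because the labels carry no replicate numbers. Signal over background was not analysed here.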

Other observations

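Neighbours of the BIO genes were examined for their position: HOL1 beside BIO5 and MNT4 beside BIO3 on chromosome XIV, and ZUO1 and IMA1 beside BIO2 on chromosome VII. MNT4 rose in each of the 4 groups. Its ratios were 1.21, 1.41, 0.96 and 0.88 in the mutant and 1.05, 0.99, 0.81 and 0.65 in wild type at 30 min, and 1.72, 1.52 and 1.35 in the mutant and 0.94, 1.08, 0.88 and 1.18 in wild type at 10 min. The fitted values were 1.12 ± 0.123 in the mutant (adjusted p = 3.84e-06) and 0.87 ± 0.124 in wild type (adjusted p = 4.14e-05) at 30 min, and 1.54 ± 0.141 in the mutant (n = 3, adjusted p = 4.86e-07) and 1.02 ± 0.122 in wild type (adjusted p = 4.73e-06) at 10 min. The strain difference did not pass at 30 min (0.24, adjusted p = 0.476) or at 10 min (0.52, adjusted p = 0.319). MNT4 encodes a putative mannosyltransferase.

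ZUO1, which encodes a ribosome-associated chaperone, fell in each of the 4 groups. It fell on the log2 scale by 1.00 ± 0.156 in the mutant (adjusted p = 0.000106) and 0.98 ± 0.156 in wild type (adjusted p = 1e-04) at 30 min, and by 0.43 ± 0.153 in the mutant (adjusted p = 0.0365) and 0.57 ± 0.153 in wild type (adjusted p = 0.00645) at 10 min. The fall at 10 min was lost in the mutant without any 1 of its 4 arrays (-0.45 to -0.39, adjusted p = 0.0705 to 0.118) and in wild type without array 3 (-0.43, adjusted p = 0.0643). HOL1, a transporter gene, could be tested in the mutant at 30 min (-0.02, adjusted p = 0.908) and in wild type at 10 min (0.31, adjusted p = 0.137) and passed in neither. IMA1 had too few values for a test in any group.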
